A study of Mus musculus with 12 samples.

Results

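The chaperones described here are 10 genes of the heat shock families, taken by name from 46517 genes in the count table: Hspa1a, Hspa1b, Hspa8, Hsph1, Dnajb1, Hsp90aa1, Hsp90ab1, Hspb1, Hspe1 and Hspd1. All 10 were found and all 10 passed the filter on low counts, with 14216 genes tested in all. They were measured by bulk RNA sequencing in macrophages sorted from 2 tissues of adult, wild type C57/BL6 mice: the aorta of 30 mice and the epididymal and subcutaneous fat of 20 mice. Viable cells carrying CD45, CD64, MerTK, CD11b and F4/80 were split by whether they carried LYVE-1, which binds hyaluronan, on their surface. This gave 4 groups of 3 libraries each, aorta LYVE1+, aorta LYVE1-, fat LYVE1+ and fat LYVE1-, with no treatment in any group. Whether replicate libraries stem from different pools of mice is not in the labels. The p-values below then measure only the spread between libraries, which may be technical.

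Chaperones bind unfolded or partly folded proteins and help them to fold, to be held soluble or to be handed on for degradation. Hsp70 proteins work in cycles of ATP hydrolysis that J domain proteins start and nucleotide exchange factors end, and many clients pass from Hsp70 to Hsp90. Some members of each family are made at all times and others are induced by heat, oxidants or protein damage through heat shock factor 1 (HSF1), which binds repeats of the unit GAA in alternating orientation. Hspa1a and Hspa1b, which encode the inducible cytosolic Hsp70, are the classical targets, while Hspa8 and Hsp90ab1 encode the constitutive forms of Hsp70 and Hsp90. In macrophages, Hsp70 and Hsp90 also serve receptors, kinases and antigen handling.

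The stretches around GAA repeats upstream of the members are shown first. The RefSeq promoter table (GRCm38.p6) held windows for 7 of the 10 members and none for Hspa8, Hsp90aa1 and Hsp90ab1. Those genes were not searched, so the stretches do not set inducible against constitutive members. For the 7, the 250 bases upstream of each start were searched for GAANNTTC and TTCNNGAA. Each of these pairs of units is its own reverse complement, so 1 search covers both strands, and matches may overlap. Capitals mark every match.
Hspa1a: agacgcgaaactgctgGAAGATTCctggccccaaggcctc
Hspa1b: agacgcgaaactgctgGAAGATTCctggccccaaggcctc
Hsph1: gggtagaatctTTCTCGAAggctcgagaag
Hspb1: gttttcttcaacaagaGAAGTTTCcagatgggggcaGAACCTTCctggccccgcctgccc
Hspe1: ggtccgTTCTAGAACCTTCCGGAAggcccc

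The Hspa1a stretch lies at chr17:34972237-34972276 and the Hspa1b stretch at chr17:34959319-34959358, both on the minus strand and between genes. Their letters are identical, and over the 250 upstream bases the pair differed at 3 positions. In both, the match starts 104 bases upstream of the RefSeq start. The Hspb1 stretch (chr5:135887786-135887845, plus strand, between genes) holds matches 117 and 97 bases upstream. The Hsph1 stretch (chr5:149636351-149636380, minus strand) lies in an annotated Hsph1 exon, 33 and 54 bases upstream of 2 RefSeq starts. The Hspe1 stretch (chr1:55088053-55088082, plus strand) holds 3 overlapping matches 89, 84 and 79 bases upstream and lies in an annotated exon of Hspd1. Hspe1 and Hspd1 are divergent neighbours, and read on the minus strand the same bases lie 144, 139 and 134 bases upstream of a RefSeq start of Hspd1. The windows of Dnajb1 held no match to these letters. Counted over genes, 6 of the 7 matched members had a match, against 14.5% of 27025 genes in the table. Runs of 3 alternating units (GAANNTTCNNGAA or TTCNNGAANNTTC) were found for 2 of the 7, Hspe1 and Hspd1, against 0.514% of genes. The members are not independent in these counts. Hspa1a and Hspa1b are nearly identical upstream, and Hspe1 and Hspd1 are both counted for the same bases. These matches describe the sequence and are not evidence of binding in these cells.

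Total counts per library ran from 5049936 to 29792301. Levels are given as CPM (counts scaled to a common library total, with edgeR's TMM factors) with the SD over 3 libraries. Both fat libraries numbered 1 stood apart in their share of mitochondrial counts, with 8.85% in fat LYVE1+ and 12.14% in fat LYVE1-, against 1.787 to 3.202% in the other 10. They were also the shallowest, and where leaving out both changes an edgeR call on a member, the value without them is given beside it. Sums over marker genes, here and below, are CPM without the TMM factors. The summed level of the 5 gate genes ran from 2790 to 3100 CPM in aorta and from 2030 to 2910 CPM in fat. None of the 5 was called in any comparison of members below. The library identifiers carry 2 prefixes whose meaning is not given: all fat libraries and aorta LYVE1+ 1 and 2 carry RMM, and aorta LYVE1+ 3 and all aorta LYVE1- libraries carry RHH. Within LYVE1- cells prefix and tissue therefore cannot be told apart. A prefix term in the model, used below, rests on the aorta LYVE1+ libraries, where only library 3 carries RHH. In bulk samples, fewer cells of a type and less RNA per cell cannot be told apart either.

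Between tissues, the inducible Hsp70 genes and the small heat shock protein Hspb1 were several-fold higher in aortic macrophages, while the constitutive Hspa8 was not called different. Averaged over both sorts, edgeR's quasi-likelihood test called 5 of the 10 members higher in aorta (Hspa1a, Hspa1b, Hsph1, Hsp90aa1 and Hspb1) and none lower, at Benjamini-Hochberg adjusted p below 0.05. Over all tested genes, 8.22% were called in this comparison and 4.6% were called higher. For the 5 called members no fat library reached the lowest aortic one, which held for 2.12% of all genes. The median log2 difference was 0.61 over the members and -0.01 over all genes tested. Within LYVE1+ cells 4 members were called higher, against 3.0% of genes called and 1.88% higher, and within LYVE1- cells 5 were, against 2.48% and 1.66%. In neither sort was a member called lower. DESeq2 called 7 in the average, the same 5 with Hsp90ab1 and Hspe1, where it called 1795 of 16344 genes. At an unadjusted edgeR p below 0.05 there were 7 members. The share of all genes at that level was not worked out, here or below, so such counts have nothing to be set against. With the library prefix in the model, 2 of the 10 remained called in the average, Hspa1b and Hspb1, where 53 of 14216 genes were called.

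Hspa1a (ENSMUSG00000091971.3, chr17:34969190-34972156, minus strand, GRCm38) encodes the inducible Hsp70 and was among the most abundant members in aorta. Its level was 1401, 1863 and 1301 CPM in the aorta LYVE1+ libraries and 1145, 1726 and 1958 CPM in the aorta LYVE1- libraries. In fat it was 128.8, 357.7 and 382.6 CPM in LYVE1+ cells and 142.3, 437.3 and 432.3 CPM in LYVE1- cells. Every aortic library was above every fat library, and the lowest of each fat group was the library numbered 1, which also had the high mitochondrial share. The log2 difference between tissues was 2.32 (SE 0.32, 5-fold, edgeR adjusted p = 0.000815). It was 2.39 in LYVE1+ cells (SE 0.45, adjusted p = 0.0132) and 2.25 in LYVE1- cells (SE 0.45, adjusted p = 0.0201). Without both fat libraries numbered 1 the average difference was 1.96 (adjusted p = 5.9e-06). With the prefix in the model it was 2.54 and no longer called (adjusted p = 0.083), nor was it in LYVE1- cells (2.58, adjusted p = 0.646). In LYVE1+ cells it was called with the prefix in the model (2.49, adjusted p = 0.0327) but not among the RMM libraries alone (2.49, adjusted p = 0.0869). The call in LYVE1- cells ended without aorta LYVE1- 2 (adjusted p = 0.0693) or 3 (0.0709), or without fat LYVE1- 2 (0.0543) or 3 (0.0645). Hspa1a overlaps Gm20481, a gene on the opposite strand, over 564 exonic bases, and the library protocol does not mark strand.

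Hspa1b (ENSMUSG00000090877.3, chr17:34956436-34959238, minus strand) is the neighbouring copy that encodes the same inducible Hsp70, and it showed the widest gap between tissues of the 10. Aortic levels were 43.18, 48.86 and 39.77 CPM in LYVE1+ cells and 41.67, 52.47 and 47.37 CPM in LYVE1- cells. Fat levels were 2.303, 2.686 and 1.613 CPM in LYVE1+ cells and 4.095, 6.085 and 3.883 CPM in LYVE1- cells. The tissues did not overlap. The log2 difference was 3.82 (SE 0.17, 14.1-fold, edgeR adjusted p = 1.36e-07), with 4.31 in LYVE1+ cells and 3.32 in LYVE1- cells. This call held with the prefix in the model (3.96, adjusted p = 0.000117) and among the RMM libraries of LYVE1+ cells alone (4.38, adjusted p = 0.00121).

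The counts of this pair cannot be fully separated. Of the 51-base windows of the transcripts, as long as 1 read of a pair, 58.6% of those of Hspa1a and 62% of those of Hspa1b occur letter for letter in the other gene, and none occurs in Hspa8. How reads that fit both copies were counted is not given in the sources used here. Hspa1b made up 2.36 to 3.51% of the summed counts of the pair in aorta and 0.42 to 2.8% in fat, where it rested on 12 to 62 counts per library. With the counts of both copies summed, the difference between tissues was 2.35 (edgeR adjusted p = 0.000685).

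**Figure D1:**
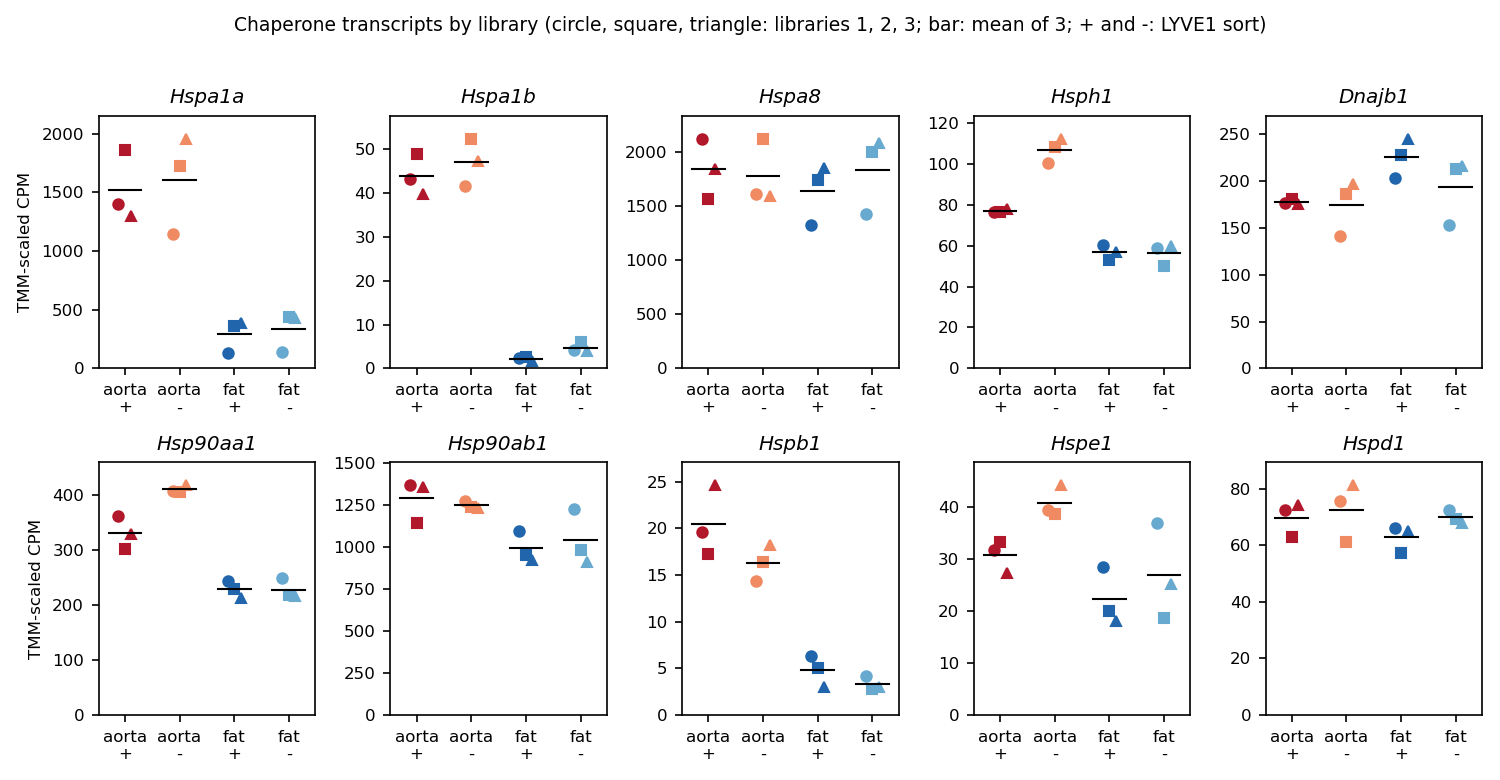
Level of each of the 10 members in the 12 libraries, as TMM-scaled CPM on linear axes that start at 0, by group of tissue and LYVE-1 sort (+ or -); circles, squares and triangles are libraries 1, 2 and 3, and bars are group means. Hspa1a, Hspa1b and Hspb1 sit lower in every fat library than in every aortic library, while the Hspa8 libraries of the 4 groups overlap.

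Hspa8 (ENSMUSG00000015656.15, chr9:40800984-40810087, plus strand) encodes Hsc70, the constitutive cytosolic Hsp70 that also uncoats clathrin vesicles. Its level was 2120, 1564 and 1850 CPM in aorta LYVE1+ and 1611, 2127 and 1600 CPM in aorta LYVE1-. In fat it was 1328, 1745 and 1855 CPM in LYVE1+ and 1427, 2006 and 2085 CPM in LYVE1- cells. All 4 groups overlapped. The log2 difference between tissues was 0.06 (95% interval -0.27 to 0.39, edgeR adjusted p = 0.857), an interval that lies below the difference of Hspa1a.

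Hsph1 and Dnajb1 serve the Hsp70 cycle. Hsph1 (ENSMUSG00000029657.14, chr5:149614287-149636376, minus strand) encodes Hsp110, a nucleotide exchange factor. It was at 76.43, 76.52 and 77.98 CPM in aorta LYVE1+ and 100.4, 108.4 and 112.3 CPM in aorta LYVE1-. In fat it was at 60.27, 52.86 and 56.85 CPM in LYVE1+ and 58.86, 50.05 and 59.83 CPM in LYVE1- cells. Both aortic groups lay above both fat groups, and aorta LYVE1- was the highest. The tissue difference was 0.69 (SE 0.09, 1.61-fold, edgeR adjusted p = 0.000418), called in LYVE1- cells (0.93, adjusted p = 0.00192) and not in LYVE1+ cells (0.44, adjusted p = 0.0747). Without both fat libraries numbered 1 the LYVE1+ value was called (0.49, adjusted p = 0.0484), as it was by DESeq2 (0.44, adjusted p = 0.0154). The test of the difference between the values of the 2 sorts was not called (-0.48, SE 0.17, adjusted p = 0.638). With the prefix in the model the tissue difference was not called in the average (0.67, adjusted p = 0.101) or in LYVE1- cells (0.90, adjusted p = 0.515).

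Dnajb1 (ENSMUSG00000005483.9, chr8:83608193-83612653, plus strand) encodes Hsp40, the J domain partner of inducible Hsp70. Its values in aorta were 176.9, 180.2 and 175.3 CPM in LYVE1+ and 141.1, 186 and 196.5 CPM in LYVE1- cells. In fat they were 203.1, 228.1 and 245.1 CPM in LYVE1+ and 153.2, 212.5 and 216 CPM in LYVE1- cells. All fat LYVE1+ libraries were above all aorta LYVE1+ libraries, and the LYVE1- groups overlapped. It was the only member whose average difference had a negative sign, -0.25 (SE 0.12, 95% interval -0.52 to 0.02, edgeR adjusted p = 0.234). Without both fat libraries numbered 1 it was called lower in aorta (-0.36, adjusted p = 0.0306). Dnajb1 is counted among inducible genes, but unlike Hspa1a and Hspa1b it was not called higher in aorta.

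The 2 cytosolic Hsp90 genes encode the forms known as alpha, which is inducible, and beta, which is constitutive. Hsp90aa1 (ENSMUSG00000021270.12, chr12:110690605-110702728, minus strand) was at 362.5, 302.5 and 328.7 CPM in aorta LYVE1+ and 407.6, 405.5 and 417.7 CPM in aorta LYVE1-. Its fat levels were 244.3, 229.7 and 212.8 CPM in LYVE1+ and 249.3, 217.5 and 216.9 CPM in LYVE1- cells. No fat library reached an aortic one. The tissue difference was 0.69 (SE 0.09, 1.61-fold, edgeR adjusted p = 0.000594), with 0.53 in LYVE1+ cells (adjusted p = 0.0425) and 0.85 in LYVE1- cells (adjusted p = 0.00444). The LYVE1+ call ended without any 1 of 5 libraries, aorta LYVE1+ 1, 2 or 3 and fat LYVE1+ 2 or 3 (adjusted p from 0.0635 to 0.159). With the prefix in the model neither the average (0.70, adjusted p = 0.106) nor the value in LYVE1+ cells (0.54, adjusted p = 0.116) or LYVE1- cells (0.86, adjusted p = 0.528) was called.

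Hsp90ab1 (ENSMUSG00000023944.13, chr17:45567775-45573271, minus strand) was at 1370, 1144 and 1361 CPM in aorta LYVE1+ and 1279, 1238 and 1235 CPM in aorta LYVE1-. In fat it was at 1098, 955.8 and 926.9 CPM in LYVE1+ and 1231, 981.2 and 910.3 CPM in LYVE1- cells. Aorta LYVE1+ and fat LYVE1- overlapped through fat LYVE1- 1. The difference of 0.32 (SE 0.11, 95% interval 0.07 to 0.58) did not pass the test over all genes (edgeR adjusted p = 0.0973). It did without fat LYVE1- 1 (0.39, adjusted p = 0.0274) and without both fat libraries numbered 1 (0.43, adjusted p = 0.00266), which also gave calls in LYVE1+ cells (0.46, adjusted p = 0.0264) and LYVE1- cells (0.40, adjusted p = 0.0448). DESeq2 called the average (0.32, adjusted p = 0.0216).

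Hspb1 (ENSMUSG00000004951.10, chr5:135887919-135889563, plus strand) encodes Hsp27 (mouse Hsp25), an ATP-independent holdase that also binds actin and is abundant in muscle. It was at 19.66, 17.21 and 24.62 CPM in aorta LYVE1+ and 14.38, 16.38 and 18.22 CPM in aorta LYVE1-. Fat levels were 6.334, 5.026 and 3.024 CPM in LYVE1+ and 4.222, 2.748 and 2.987 CPM in LYVE1- cells. These fat values rested on 28 to 58 counts per library. The tissues did not overlap, and the log2 difference was 2.21 (SE 0.21, 4.62-fold, edgeR adjusted p = 7.78e-05). It was called in LYVE1+ cells (2.11, adjusted p = 0.0027) and in LYVE1- cells (2.30, adjusted p = 0.002). With the prefix in the model it was called in the average (1.92, adjusted p = 0.0446) and in LYVE1+ cells (1.96, adjusted p = 0.0138), but not in LYVE1- cells (1.89, adjusted p = 0.528). Among the RMM libraries of LYVE1+ cells alone it was 1.95 and not called (adjusted p = 0.0669).

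Some transcripts of other cell types also differed between tissues, with sums given as CPM without the TMM factors. The summed level of 8 smooth muscle markers was 35.2 to 70.5 CPM in aorta LYVE1+ and 41.5 to 104 CPM in aorta LYVE1-, against 14 to 33.1 CPM in fat LYVE1+ and 11.1 to 16.1 CPM in fat LYVE1-. Of the 8, 4 were called higher in aorta in the average, with a median log2 difference of 1.87, and Cnn1 had no count in fat LYVE1+. Of 10 fibroblast markers 3 were called higher (median 0.69), with sums of 890 to 2650 CPM in aorta and 442 to 1130 CPM in fat that overlapped between tissues. These counts stand against 4.6% of all genes called higher. Of 5 lymphatic endothelial markers 2 were called higher (median 2.47), with sums of 9.55 to 57.8 CPM in aorta and 1.63 to 15.8 CPM in fat. Of 8 adipocyte markers 6 were called lower in aorta (median -3.36), with sums of 44.6 to 57.8 CPM there and 80.8 to 189 CPM in fat. None of 8 endothelial markers (median 0.33) and none of 5 erythroid markers (median -3.44) was called, and erythroid sums reached 25900 CPM in fat LYVE1+. Of 12 T and NK cell markers 1 was called higher and 1 lower, as of 8 dendritic cell markers. Of 5 tested eosinophil markers 1 was called lower. None of 7 B cell and 6 tested mast cell markers was called, and no neutrophil marker passed the filter. The part of these cells in the levels of Hspb1 or any other member was not tested.

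Hspd1 and Hspe1 encode Hsp60 and its lid Hsp10, which together fold proteins in the mitochondrial matrix. They share a divergent promoter region on chromosome 1 and overlap by 112 exonic bases on opposite strands, which an unstranded protocol does not separate. Hspd1 (ENSMUSG00000025980.13, chr1:55077835-55088243, minus strand) was at 72.37, 62.84 and 74.14 CPM in aorta LYVE1+ and 75.51, 61.15 and 81.19 CPM in aorta LYVE1-. In fat it was at 66.03, 57.37 and 65.01 CPM in LYVE1+ and 72.29, 69.29 and 67.89 CPM in LYVE1- cells. The tissues overlapped in both sorts, and the difference was 0.10 (95% interval -0.12 to 0.33, edgeR adjusted p = 0.581).

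Hspe1 (ENSMUSG00000073676.4, chr1:55088132-55091307, plus strand) was at 31.74, 33.22 and 27.32 CPM in aorta LYVE1+ and 39.26, 38.49 and 44.09 CPM in aorta LYVE1-. Its fat levels were 28.41, 20.02 and 18.14 CPM in LYVE1+ and 36.85, 18.65 and 25.19 CPM in LYVE1- cells. The highest value of each fat group was the library numbered 1. The difference of 0.54 (SE 0.17, 1.45-fold) did not pass (edgeR adjusted p = 0.0669). It did without fat LYVE1+ 1 (0.64, adjusted p = 0.026), without fat LYVE1- 1 (0.69, adjusted p = 0.0122) or without both (0.79, adjusted p = 0.00166). Without both it was also called in LYVE1+ cells (0.69, adjusted p = 0.047) and LYVE1- cells (0.89, adjusted p = 0.0142). The average was called by DESeq2 (0.54, adjusted p = 0.034), with no filter on low counts (0.56, adjusted p = 0.0237) and with replicate numbers as a block (0.57, adjusted p = 0.043). That block joins aortic and fat libraries of the same number, which are not known to be paired.

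**Figure D2:**
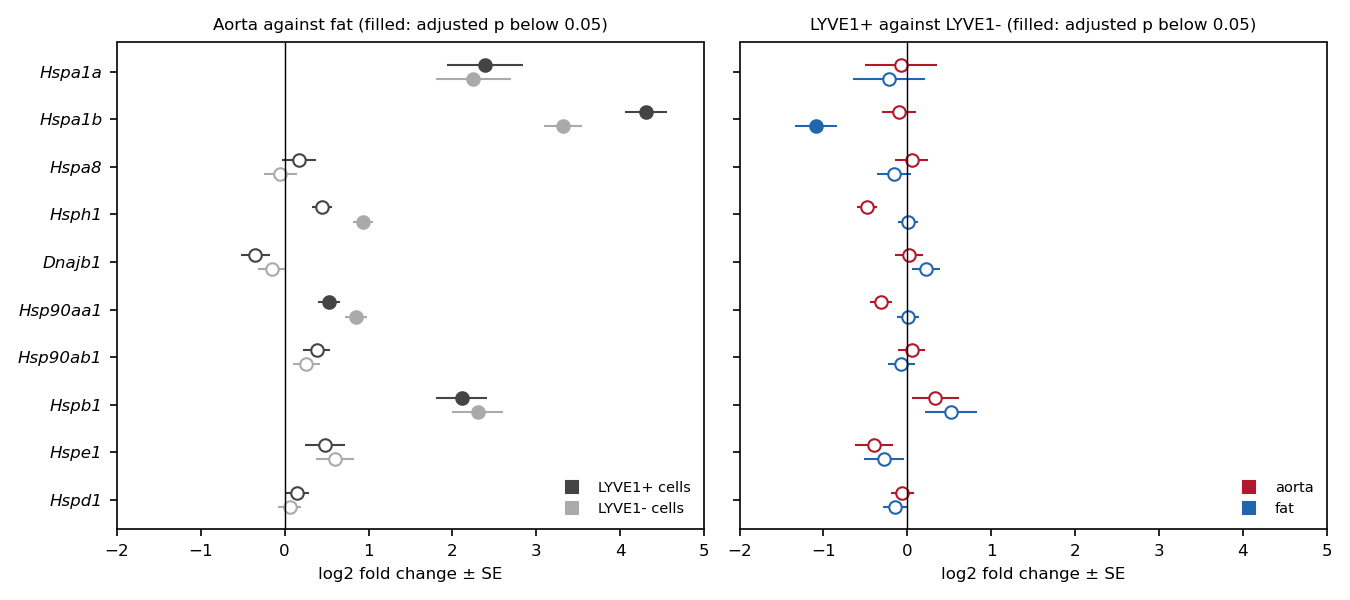
Log2 difference of each member between aorta and fat in each sort (left) and between LYVE1+ and LYVE1- cells in each tissue (right), with bars of 1 SE from edgeR; filled points were called at adjusted p below 0.05. Hspa1b, Hspa1a and Hspb1 lie farthest from 0 between tissues, and between sorts Hspa1b in fat was the only call.

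Inducible and constitutive partners were then set against each other within each library, as ratios of CPM per kilobase of exon, which do not depend on the scaling between libraries. The ratio of Hspa1a plus Hspa1b to Hspa8 was 0.989, 1.77 and 1.05 in aorta LYVE1+ and 1.07, 1.21 and 1.82 in aorta LYVE1-. In fat it was 0.143, 0.299 and 0.3 in LYVE1+ and 0.149, 0.321 and 0.303 in LYVE1- cells. Inducible Hsp70 transcripts were thus about level with Hspa8 in aorta and well below it in fat on this scale. The length chosen for Hspa8 sets the height of the ratio but scales all libraries nearly alike. The log2 difference in the ratio was 2.42 (5.35-fold), with 2.39 in LYVE1+ and 2.45 in LYVE1- cells. A two-sided exact permutation test within sorts gave p = 0.005, the smallest that 400 arrangements allow, and 0.015 after Benjamini-Hochberg adjustment over the 6 ratio tests. This test moves the libraries of the 2 sorts independently. With same-numbered LYVE1+ and LYVE1- libraries moved together, a check added after seeing the data, 20 arrangements remain, none can give a p below 0.1, and the exact permutation p was 0.1.

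The ratio of Hsp90aa1 to Hsp90ab1 was 0.202, 0.202 and 0.184 in aorta LYVE1+, 0.243, 0.25 and 0.258 in aorta LYVE1-, 0.17, 0.183 and 0.175 in fat LYVE1+ and 0.154, 0.169 and 0.182 in fat LYVE1-. The alpha form was the lesser of the pair in every library, and its share was highest in aorta LYVE1-. Between tissues the difference was 0.36 (1.29-fold, exact permutation p = 0.005, adjusted 0.015), with 0.15 in LYVE1+ and 0.57 in LYVE1- cells. With same-numbered libraries moved together that p was 0.1. The ratio of Hspd1 to Hspe1 was 0.886 to 1.51 in aorta and 1.09 to 2.07 in fat. It was lower in aorta by 0.47 on the log2 scale (-0.47, 1.39-fold, exact permutation p = 0.02, adjusted 0.04), with overlap between the tissues, and with same-numbered libraries moved together p was 0.2. Leaving out 1 library raised that p to 0.05 for 5 of the 12 libraries: aorta LYVE1+ 1 and 2, aorta LYVE1- 2 and fat LYVE1+ 2 and 3. None of the 3 ratios was called between sorts (exact permutation adjusted p = 0.625, 0.143 and 0.294).

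**Figure D3:**
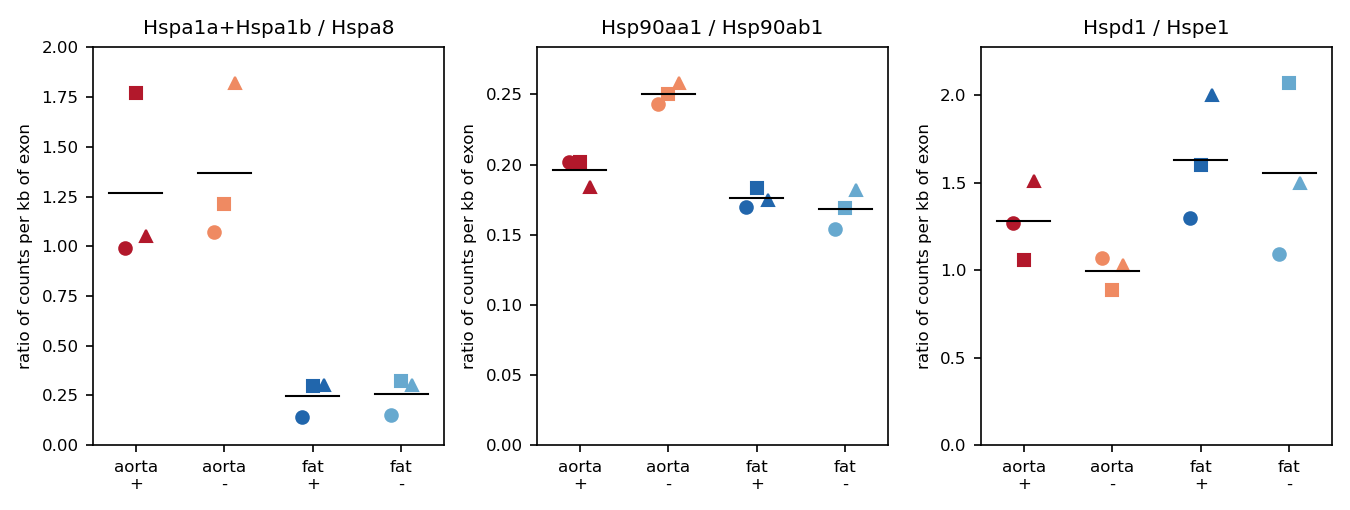
Ratio of paired members within each library, from counts per kilobase of exon, on linear axes that start at 0: Hspa1a plus Hspa1b to Hspa8, Hsp90aa1 to Hsp90ab1, and Hspd1 to Hspe1 as the pair of the mitochondrial chaperonin. Circles, squares and triangles are libraries 1, 2 and 3 and bars are group means. In the first panel the 6 aortic libraries lie at 0.989 to 1.82 and the 6 fat libraries at 0.143 to 0.321.

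Per kilobase of exon, Hspa1a, Hsp90ab1 and Hspa8 led in aorta and Hspa8 and Hsp90ab1 led in fat. In aorta LYVE1+ their levels were 513, 431 and 429 CPM per kb, with ranges that overlapped, and in aorta LYVE1- 543, 417 and 414. Hsp90aa1 came next at 84.3 and 104 CPM per kb, then Dnajb1 at 55.4 and 54.5. In fat, Hspa8 stood at 382 in LYVE1+ and 428 in LYVE1- cells, Hsp90ab1 at 331 and 347, and Hspa1a at 97.6 and 114 CPM per kb. At the low end, Hsph1 was the lowest member in both aortic groups (10.6 and 14.7 CPM per kb) and Hspa1b in both fat groups (0.785 and 1.67). The first and last places depend on the length used. Hspa8 has many short annotated transcripts, and the mean transcript of Hsph1 has 1947.4 bases against 7266 bases of exon. With the mean transcript length, Hspa8 was at 1500 CPM per kb in aorta LYVE1+ and 1450 in aorta LYVE1-, above Hspa1a. On that scale Hsph1 was at 39.5 and 55 CPM per kb in these groups. Hspa1b, at 15.7 and 16.8, was then the lowest member there.

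Fewer members were called between the LYVE-1 sorts than between tissues. In aorta none of the 10 was called between LYVE1+ and LYVE1- cells by edgeR, where 0.542% of all genes were called. At an unadjusted p below 0.05 there were 2, and DESeq2 called 1, Hsph1 (-0.48, adjusted p = 0.00783), where it called 360 of 14937 genes. Without both fat libraries numbered 1, edgeR also called Hsph1 (-0.47, adjusted p = 0.0398). Hsph1, Hsp90aa1 and Hspe1 did not overlap between the sorts and were lower in LYVE1+ cells, where 22.4% of all genes did not overlap. Their log2 differences were -0.48 (adjusted p = 0.121), -0.31 (adjusted p = 0.373) and -0.40 (adjusted p = 0.552). The median over the members was -0.07, against -0.01 over all genes tested. Mast cell marker sums were 1.84 to 12.7 CPM in aorta LYVE1+ and 47.4 to 80.4 CPM in aorta LYVE1-. Eosinophil sums were 2.03 to 4.3 and 46.3 to 145 CPM. Of 5 tested eosinophil markers 2 were called lower in LYVE1+ cells, as was 1 of 8 dendritic cell markers. No tested marker of the other lists was called. The part of such cells in the members' levels was not tested.

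In fat 1 member was called between sorts, where 3.93% of all genes were called and 2.1% lower. Hspa1b was lower in LYVE1+ than in LYVE1- cells, with a log2 difference of -1.09 (SE 0.25, 2.13-fold, edgeR adjusted p = 0.0301). The value for Hspa1a was -0.22 (adjusted p = 0.866). The Hspa1b call ended without fat LYVE1+ 2 (adjusted p = 0.0553) or 3 (0.168), without fat LYVE1- 2 (0.115), and when the 2 fat groups were fitted alone (-1.08, adjusted p = 0.375). With replicate numbers as a block it remained called, and 915 genes were called in place of 558. None of the 10 was called for a difference between the aortic and the fat value (0.155% of all genes were, and 2 members had an unadjusted p below 0.05, none by DESeq2). For Hspa1b that difference was 0.99 (SE 0.32, edgeR adjusted p = 0.551).

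Most of the wider chaperone network was not called between tissues. Lists of 122 further genes covered the Hsp70 and J domain families, nucleotide exchange factors, Hsp90 cochaperones, small heat shock proteins, the cytosolic chaperonin TRiC, and the chaperones of the endoplasmic reticulum and mitochondria, and 117 were tested. In the average over sorts 2 were called higher and 3 lower in aorta, or 4.27%, below the 8.22% of all genes. Their median log2 difference was -0.01, the same as over all genes. None of the 4 tested heat shock factors and their regulators was called, nor any of the 11 nucleotide exchange factors, 18 Hsp90 cochaperones, 6 small heat shock proteins, 14 TRiC and prefoldin subunits or 14 mitochondrial genes. At an unadjusted p below 0.05 those lists held 0, 0, 4, 1, 0 and 2 genes, and DESeq2 called 0 in the first 5 and 1 in the last.

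Among 19 heat-inducible genes outside the 10 members, 17 were not called and the median was 0.01. Serpinh1, the collagen chaperone Hsp47 of the endoplasmic reticulum, was higher in aorta at 36.1 ± 21 and 37.7 ± 8.91 CPM in LYVE1+ and LYVE1- cells, against 14.7 ± 4.57 and 18 ± 7.5 CPM in fat (1.19, SE 0.29, edgeR adjusted p = 0.0238). It is abundant in collagen-making cells, and 3 of the 10 fibroblast markers given above were also called higher; their part in its level was not tested. Dnajb4, a J domain protein close to Dnajb1, was lower in aorta (-0.52, SE 0.14, adjusted p = 0.0342). With the prefix in the model neither was called (Serpinh1 1.55, adjusted p = 0.27; Dnajb4 -0.93, adjusted p = 0.0832). Leaving out 1 library ended the Serpinh1 call for 6 of the 12 (aorta LYVE1+ 2, aorta LYVE1- 2 and 3, fat LYVE1+ 2 and 3, fat LYVE1- 3; adjusted p from 0.0504 to 0.0601). It ended the Dnajb4 call for 8 (aorta LYVE1+ 1 and 2, and libraries 2 and 3 of the other groups; 0.0518 to 0.0918). Bag3, a nucleotide exchange factor, was at 0.13 (adjusted p = 0.408) and Dnaja1, a further J domain partner of Hsp70, at -0.26 (adjusted p = 0.24). These 2 were chosen after their values were seen. Promoter windows from RefSeq were found for 17 of the 19, and 4 held the pair of GAA units, against 14.5% of 27025 genes.

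Other families gave single calls in the same average. Hspa2, a member of the Hsp70 family best known from testis, was lower in aorta (-0.90, SE 0.23, edgeR adjusted p = 0.0312). Dnajb6, which holds back aggregation, was higher (0.39, SE 0.11, adjusted p = 0.0462). Dnajb9, a J domain protein of the endoplasmic reticulum induced by unfolded proteins there, was lower (-0.67, SE 0.13, adjusted p = 0.00662). With the prefix in the model none of these 3 was called (adjusted p = 0.302, 0.734 and 0.266). With no filter on low counts Hspa2 (adjusted p = 0.0652) and Dnajb6 (0.0837) were not called, and Dnajb6 was not called without both fat libraries numbered 1 (0.39, adjusted p = 0.0545). The Dnajb6 call ended without any 1 library other than aorta LYVE1+ 2 (0.0571 to 0.113). The Hspa2 call ended without any 1 of 7 (aorta LYVE1+ 1 or 2, aorta LYVE1- 1 or 3, fat LYVE1+ 2 or 3, fat LYVE1- 1; 0.0621 to 0.0774), while the Dnajb9 call held without each of the 12 in turn. Mitochondrial Hspa9 (mortalin) was at 0.13 (adjusted p = 0.463), the chaperonin subunit Cct5 at -0.14 (adjusted p = 0.379) and St13, an Hsp70 cochaperone, at 0.06 (adjusted p = 0.77).

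Between sorts, 2 of these genes were called in fat. Hspa12a, a distant relative of Hsp70, was higher in fat LYVE1+ at 16.8 ± 4.59 CPM than in fat LYVE1- at 1.01 ± 0.461 CPM (4.08, SE 0.51, 16.9-fold, edgeR adjusted p = 0.000853). In aorta its levels were 3.9 ± 1.82 and 1.29 ± 0.47 CPM (1.57, SE 0.46, adjusted p = 0.19), and the test of the difference between tissues was not called by edgeR (-2.51, SE 0.66, adjusted p = 0.303) but was by DESeq2 (-2.54, adjusted p = 0.048). Dnajc9, a histone chaperone with a J domain, was lower in fat LYVE1+ cells (22.8 ± 3.59 against 37.3 ± 2.18 CPM, adjusted p = 0.0302). That call ended without both fat libraries numbered 1 (-0.62, adjusted p = 0.0861), with only the fat groups fitted (-0.69, adjusted p = 0.129), and without any 1 fat library other than fat LYVE1+ 2 (0.0624 to 0.139). Hsbp1, which encodes a small protein that binds heat shock factors, was not called in fat (0.70, adjusted p = 0.0913), but was with replicate numbers as a block (0.70, adjusted p = 0.00956), by DESeq2 (0.70, adjusted p = 0.0216) and without both fat libraries numbered 1 (0.69, adjusted p = 0.0126). In aorta none of the 117 was called by edgeR, with 9 at an unadjusted p below 0.05 and 1 by DESeq2.

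**Figure D4:**
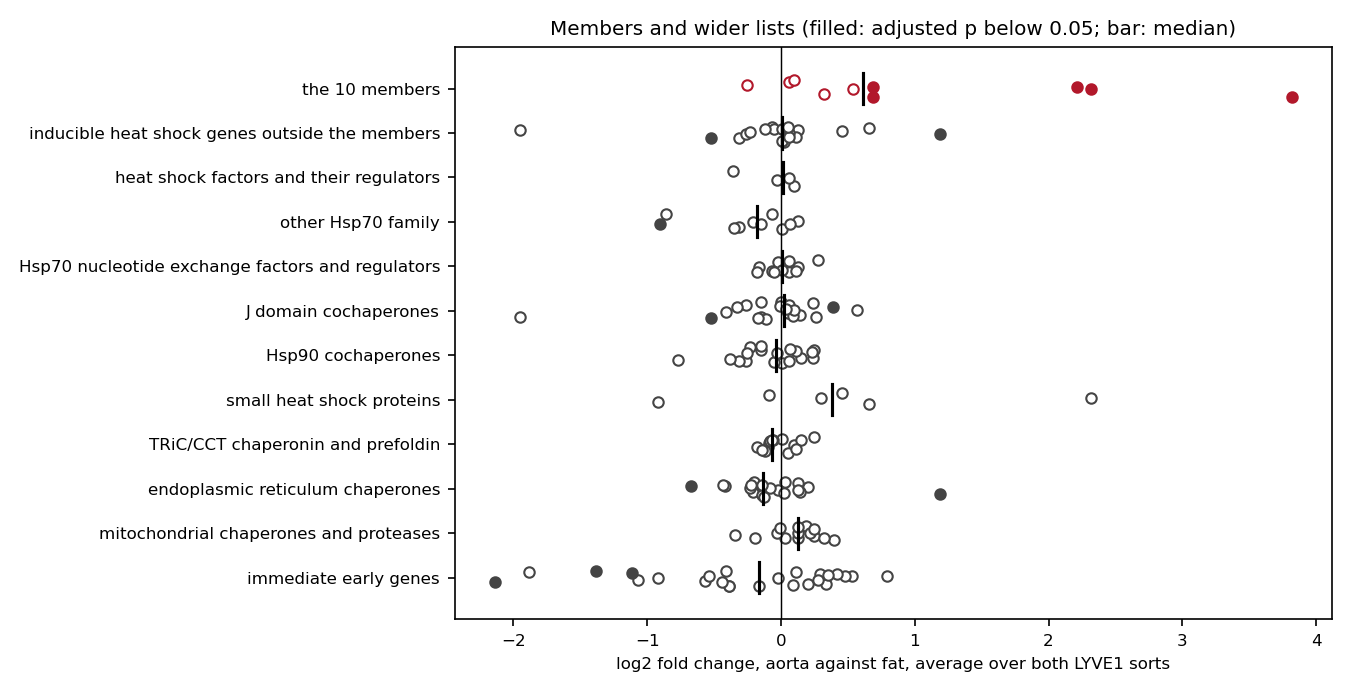
Log2 difference between aorta and fat, averaged over sorts, for the 10 members, each tested gene of the chaperone lists and the immediate early genes (a gene in several lists appears in each); points are genes, filled where called at adjusted p below 0.05, and bars are list medians. The members' median is 0.61, while the median of the 117 other chaperone genes is -0.01.

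Immediate early genes, which are induced within minutes of a stimulus and respond to handling of tissue, differed in both directions and gave no edgeR call higher in aorta. Of 25 tested, 3 were called lower (Egr1, Egr2 and Ier2), where 514 of all 14216 genes were called lower. The median log2 difference over the 25 was -0.16. The largest positive differences were those of Jun (0.79, edgeR adjusted p = 0.0805) and Atf3 (0.53, adjusted p = 0.0645). The largest negative ones were those of Egr2 (-2.14, adjusted p = 5.49e-07) and Egr3 (-1.88, adjusted p = 0.175). At an unadjusted p below 0.05 there were 12, and DESeq2 called 6, with directions not given here. Fos, a subunit of the AP-1 transcription factor, was at 3930 ± 111 and 4330 ± 294 CPM in aorta and 3960 ± 1600 and 4400 ± 1740 CPM in fat (-0.02, SE 0.23, edgeR adjusted p = 0.978). Dusp1, a phosphatase of stress kinases, differed by -0.39 (SE 0.27, adjusted p = 0.45). Without both fat libraries numbered 1, Fos (-0.32, edgeR adjusted p = 0.00504) and Dusp1 (-0.73, adjusted p = 0.000317) were called lower in aorta. The part of tissue handling in the levels of these genes or of the members was not tested.

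The genes whose profile over the 12 libraries lay closest to that of Hspa1a plus Hspa1b were Gm37352, Mtus1, Osm, 4930430E12Rik and D730003I15Rik. Likeness was the root mean square distance between mean-centred log2 CPM, over the 7116 genes whose average log2 CPM was 4 or more. The distances were 0.59, 0.67, 0.68, 0.70 and 0.71, against a median of 1.38 over all genes compared. Osm, which encodes the cytokine oncostatin M, was at 184 and 183 CPM in aorta LYVE1+ and LYVE1- and at 61.4 and 56.2 CPM in the fat groups. Mtus1, a microtubule-associated gene, was at 88.8 and 63.2 CPM in aorta and 21.8 and 8.32 CPM in fat.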

How the data were processed

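Per the labels, Smart-seq2 libraries were prepared with 2 ng RNA input and read as pairs of 51 cycles. The deposited table holds raw counts per gene in 12 libraries. The submitters' processing notes list the aligner STAR 2.5.2b, the counter featureCounts 1.5.0, edgeR 3.14.0 and the GRCm38 build. Strand setting, annotation release and the treatment of multiply mapped reads are not given in the sources used here. A deposited log2 CPM table was not used. Symbols, coordinates and exon lengths came from GENCODE M21.

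The counts were fitted with edgeR 4.0.16 (R 4.3.3), with TMM factors, filterByExpr, 1 mean per group over all 12 libraries and 8 residual degrees of freedom. The quasi-likelihood tests were two-sided, and p was adjusted over all 14216 genes tested. SE is the log2 fold change divided by the root of F, and 95% intervals use the residual degrees of freedom. The script was tested on simulated data. DESeq2 1.42.0 and other settings were alternatives.

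The members and gene lists were chosen with earlier results of these data known. Named from each list were up to 2 called genes with the smallest p in the tissue average and each sort comparison, or else its most abundant gene. For immediate early genes the 2 most abundant were named, with the called genes and, after the values were seen, those with the largest differences of each sign. Same-numbered LYVE1+ and LYVE1- libraries deviated together in fat (r = 0.486, 0.279 and 0.184 for numbers 1 to 3) but not in aorta (-0.044, -0.077 and -0.17), so by the rule that every r exceed 0.1 the numbers were taken to pair the samples in fat only. Unlike numbers 2 and 3 in fat gave r = 0.192 and 0.225, so only number 1 stands apart. The main fit held no replicate block, also in fat, and fits with the block are given as alternatives. Precision is limited by 3 libraries per group and by depth, from 5049936 counts in the shallowest library.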

Additional observations from a re-analysis of the deposited data

How the results depend on the processing

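Over all settings, the members' differences kept their call or lack of one in 969 of 1014 cases, lost a call in 27 and gained one in 18. Most cases are differences that were not called in the main fit, so this total says little about how firm the calls are. None reversed. The other named genes kept theirs in 1448 of 1530. With the library prefix in the model, 2 members were called in the tissue average and 1 (Hspa1b) in LYVE1- cells. In that fit the prefix is estimated from the aorta LYVE1+ libraries only, where only library 3 carries RHH. With RMM libraries alone, 1 member was called in LYVE1+ cells and 0 between sorts in fat, and the ratio differences were 2.50 (Hspa1a plus Hspa1b to Hspa8, p = 0.1), 0.20 (Hsp90aa1 to Hsp90ab1, p = 0.1) and -0.47 (Hspd1 to Hspe1, p = 0.2) by exact permutation tests, where 0.1 is the smallest p the design allows. Without both fat libraries numbered 1, 8 members were called in the tissue average, 7 higher and 1 (Dnajb1) lower, where 2153 of 14769 genes were called. In that setting 7 were called in LYVE1+ cells, 7 in LYVE1- cells and 1 between sorts in aorta. DESeq2 called 1 between sorts in aorta. Between sorts in fat, 0 were called with only the groups compared or with Hspa1a and Hspa1b summed. The causes were not tested.

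With each library left out in turn, 5 to 7 members were called in the tissue average, 3 to 4 in LYVE1+ cells, 4 to 5 in LYVE1- cells, 0 between sorts in aorta and 0 to 1 in fat. The Hspd1 to Hspe1 ratio difference ran from -0.59 to -0.36. With replicate numbers as a block, 6 members were called in the tissue average, with Hspe1 added (0.57, edgeR adjusted p = 0.043). The counts of members called in the other comparisons were the same. Between tissues this block joins aortic and fat libraries of the same number, which are not known to be paired. Their deviations gave r = -0.201, 0.027 and -0.168 in LYVE1+ cells and 0.202, 0.093 and 0.032 in LYVE1- cells. No edgeR fit of the tissue average took same-numbered LYVE1+ and LYVE1- libraries as 1 unit. With same-numbered libraries moved together as a block, an alternative added after seeing the data, the ratio differences of 2.42, 0.36 and -0.47 had exact permutation p = 0.1, 0.1 and 0.2, with 0.1 the smallest possible.

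Counts over all genes moved more. The tissue average had 1168 calls by edgeR, 1795 by DESeq2, 53 with the prefix and 2153 without both fat libraries numbered 1. In LYVE1+ cells, 426 calls became 933 by DESeq2, 820 with no filter on low counts, 243 with only the groups compared, 181 with the prefix, 91 with RMM libraries alone and 890 without both fat libraries. In LYVE1- cells, 353 became 850 by DESeq2, 647 with no filter, 7 with the prefix and 1024 without both fat libraries. Between sorts in aorta, 77 became 360 by DESeq2, 336 with no filter, 294 with only the groups compared, 243 with the block, 2 with the prefix and 566 without both fat libraries. In fat, 558 became 1031 by DESeq2, 206 with only the groups compared, 915 with the block, 273 with RMM libraries alone and 887 without both fat libraries. The interaction had 22, then 108 by DESeq2, 72 with no filter, 0 with the prefix and 84 without both fat libraries. Leaving out 1 library gave 779 to 1340, 172 to 443, 98 to 385, 23 to 64, 219 to 1025 and 0 to 47 calls, in the same order. Depth limits Hspa1b and Hspb1 in fat most, at 12 to 62 and 28 to 58 counts per library.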
